A study of Mus musculus with 6 samples.

Results

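The immediate early genes described here are Nr4a1, Nr4a2, Nr4a3, Egr1, Egr3, Arc, Ier2, Ier3, Btg2 and Dusp1, measured in the quadriceps of exercised and sedentary AR97Q mice. These 10 genes are immediate early genes outside the AP-1 family, and they were chosen by name, with earlier results of these data known. Their probes were found by matching the transcript accession of each array probe to the RefSeq gene table of the mouse. All 10 were on the array, with 15 probes, of which 12 passed the filter on dim probes. Each of the 10 kept at least 1 probe and was tested, among 25005 genes and transcripts in all.

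AR97Q mice model SBMA, spinal and bulbar muscular atrophy, and carry the human androgen receptor gene with an expanded CAG repeat on a C57BL/6J background. All mice of both groups were male AR97Q mice at 9 weeks of age, and no wild-type mice were on these arrays. The 3 mice of the exercise group had been trained on a forced running wheel during the presymptomatic weeks, and the 3 mice of the sedentary group had not. According to the study's methods, exercised mice were killed the day after their last bout, so that the arrays do not sample the minutes or first hours after running. The hour of collection and the promoter that drives the transgene are not given in the sources used here.

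Immediate early genes are transcribed within minutes of a stimulus, because the transcription factors that act on them, such as CREB and serum response factor, are already present in the resting cell and need only be activated by calcium, cAMP or MAP kinase signalling. Their messages are short-lived, and many of them encode transcription factors or brakes on the same signals. In skeletal muscle they are known for rising after a bout of contraction. Nr4a1, Nr4a2 and Nr4a3 encode orphan nuclear receptors that act without a known hormone ligand. Egr1 and Egr3 encode zinc finger transcription factors. Dusp1 encodes a phosphatase that switches off MAP kinases, and Btg2 encodes an antiproliferative protein that binds the CCR4-NOT deadenylase complex.

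Promoters are shown for the element through which CREB acts, the cAMP response element (CRE), with the palindrome TGACGTCA or its core TGACG. RefSeq promoter windows of the GRCm38.p6 build ran from 250 bases before to 50 bases after the start of transcription. No window was at hand for Egr3, Arc or Ier2, and that of Egr1 was left out. Windows were read for 6 of the genes (Nr4a1, Nr4a2, Nr4a3, Ier3, Btg2 and Dusp1). Those of 4 follow, in the direction of transcription, with each TGACG on either strand in capitals. An overlapping pair of cores that forms the palindrome was counted once. The window of Nr4a1 lies at chr15:101266596-101266895 on the plus strand, that of Nr4a3 at chr4:48045055-48045354 on the plus strand, that of Btg2 at chr1:134079106-134079405 on the minus strand and that of Dusp1 at chr17:26508423-26508722 on the minus strand.
Nr4a1: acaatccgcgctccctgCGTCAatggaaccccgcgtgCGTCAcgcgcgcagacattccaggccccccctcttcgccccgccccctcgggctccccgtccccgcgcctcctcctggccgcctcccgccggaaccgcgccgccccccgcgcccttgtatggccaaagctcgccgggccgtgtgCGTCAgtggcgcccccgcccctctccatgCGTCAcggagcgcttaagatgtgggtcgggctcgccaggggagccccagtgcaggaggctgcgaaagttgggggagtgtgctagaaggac
Nr4a3: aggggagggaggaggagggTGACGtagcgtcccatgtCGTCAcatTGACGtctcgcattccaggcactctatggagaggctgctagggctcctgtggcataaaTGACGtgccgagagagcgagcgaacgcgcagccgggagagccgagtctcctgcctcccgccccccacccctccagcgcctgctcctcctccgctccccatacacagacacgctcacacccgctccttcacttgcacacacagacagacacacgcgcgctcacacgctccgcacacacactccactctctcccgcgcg
Btg2: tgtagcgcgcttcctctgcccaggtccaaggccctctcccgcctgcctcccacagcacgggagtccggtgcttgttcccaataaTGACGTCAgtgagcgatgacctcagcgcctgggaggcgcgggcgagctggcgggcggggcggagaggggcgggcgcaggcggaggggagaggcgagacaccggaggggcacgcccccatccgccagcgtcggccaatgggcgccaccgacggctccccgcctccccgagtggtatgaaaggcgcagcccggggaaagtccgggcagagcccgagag
Dusp1: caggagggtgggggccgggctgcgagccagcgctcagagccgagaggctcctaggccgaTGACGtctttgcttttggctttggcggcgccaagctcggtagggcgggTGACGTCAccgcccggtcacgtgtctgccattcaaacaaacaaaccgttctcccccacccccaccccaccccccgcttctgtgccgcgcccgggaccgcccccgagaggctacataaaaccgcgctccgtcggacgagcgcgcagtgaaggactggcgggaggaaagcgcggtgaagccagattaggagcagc
The windows of Nr4a1 and Nr4a3 held 4 cores each and no palindrome, as did that of Nr4a2. Btg2 held 1 palindrome, and Dusp1 held 1 palindrome and 1 further core. Ier3 held neither. The core was thus present in 5 of these 6 windows and in 20.8% of all 32851 promoter windows, and the palindrome in 2 of 6 and in 1.79%. The member windows are rich in G and C, between 54% and 81.7%, against a median of 52.7% over all windows. The CArG box, which serum response factor binds, was in 0 of the 6 windows and in 1.63% of all. The NR4A element AAAGGTCA was in 0 of 6 and in 1.51%, and the EGR site GCGTGGGCG was in 0 of 6 and in 0.612%, each searched on both strands. These are matches of letters in a short window and not measured binding sites. None of these counts covers Egr1, Egr3, Arc or Ier2, so they do not say whether the promoters of those genes hold a CArG box or another of these elements.

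Every value below is a log2 signal, the log2 of the processed brightness of a spot minus the 75th percentile of its own array, so that 0 stands for that percentile. Before this scaling the 75th percentile was lower on each exercise array (250.5 to 256.9) than on any sedentary array (310.3 to 383.6). Differences between groups are therefore relative to the bulk of genes of the same array, whose median log2 fold change was 0.026. The used probe of each of the 10 genes was well above background on all 6 arrays, and no spot was saturated. By the position in their barcodes, the 6 arrays lie in 2 strips of a slide. The exercise arrays share a strip with sedentary mouse 1 but not with sedentary mice 2 and 3. The labelled tissue was borne out by the 10 muscle markers tested, such as Acta1, Ckm and Tnni2, which were all well above background. The labels do not say whether mice of a group shared a litter or cage, and p-values measure the spread between these mice.

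All 10 immediate early genes had a higher mean in the exercise group, and 5 of them rose: Nr4a1, Egr1, Arc, Ier2 and Dusp1. Their rises lay between 2.09-fold for Dusp1 and 4.36-fold for Arc. In limma with Benjamini-Hochberg adjustment over all genes tested, the adjusted p of these 5 was between 0.0304 and 0.0439, and 17.6% of everything tested passed 0.05, with 11.5% as higher. The same 5 also passed the fold change minimum of the study (a log2 fold change of at least 1), as did 2.78% of everything tested, with 1.72% as higher. In the same 5 genes the lowest exercise array was still above the highest sedentary one, as in 25.0% of everything tested. No member fell or lay lower without overlap, as 18.2% of everything tested did. The calls rest on exercise mice 1, 2 and 3 and on sedentary mice 2 and 3. Without any one of these mice, limma called 0 of the 10 genes. The lowest adjusted p of a member by limma was then between 0.0607 and 0.0990, and between 5 and 7 members had an unadjusted p under 0.05. At most 1 of all 25005 genes and transcripts passed in those fits. With the strip as a blocking term limma called 0 of the 10, and 3 had an unadjusted p under 0.05. Without sedentary mouse 1, 4 of the 5 passed, with 22.1% of everything tested, and Arc had an adjusted p of 0.0815.

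**Figure D1:**
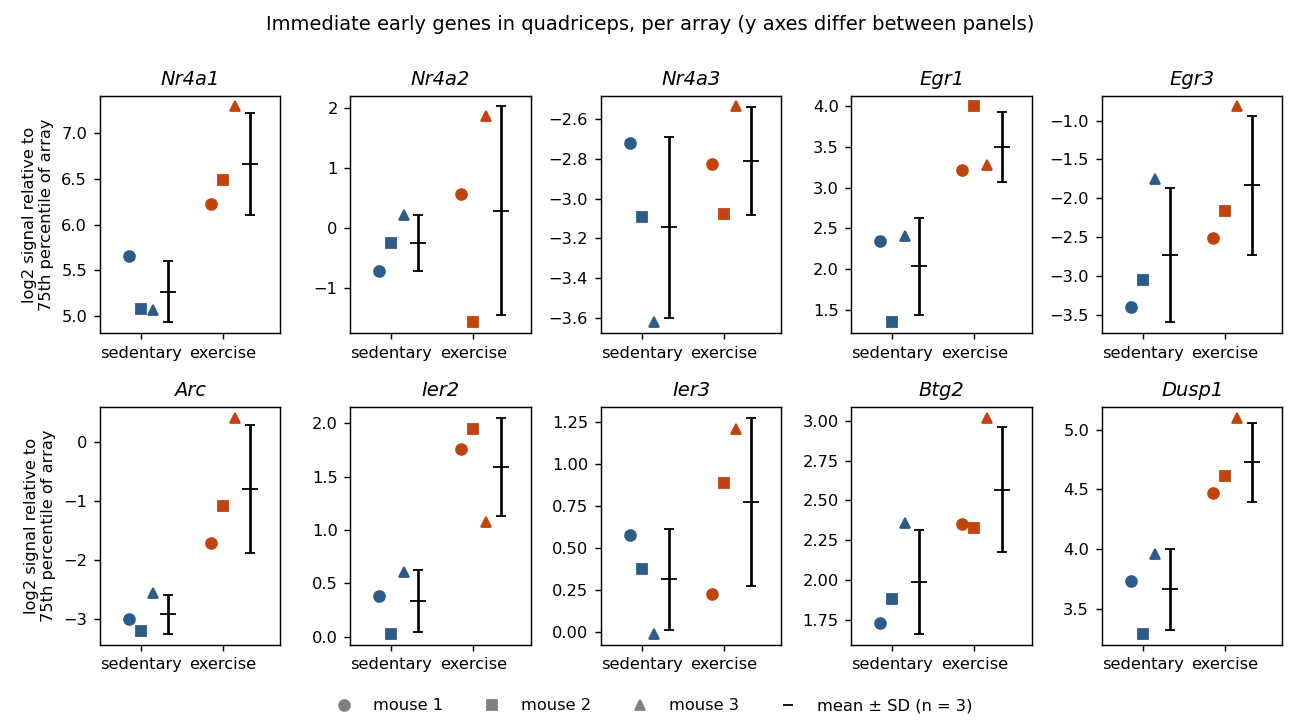
Log2 signal relative to the 75th percentile of the array (y axis, a different range in each panel) of the 10 immediate early genes in 3 sedentary (blue) and 3 exercise (orange) mice, with the mean and SD in black; mice of the same number are not paired. In Nr4a1, Egr1, Arc, Ier2 and Dusp1 the exercise mice lie above all sedentary mice, whereas Nr4a2 spans 3.44 log2 units within the exercise group.

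Of the NR4A receptors, only Nr4a1 passed the test. Nr4a1, also called Nur77, is known in skeletal muscle for its action on genes of glucose use. Its log2 signal was 6.22, 6.48 and 7.29 in exercise mice 1, 2 and 3 and 5.65, 5.08 and 5.07 in sedentary mice 1, 2 and 3. The groups did not overlap, with sedentary mouse 1 nearest to the exercise group. Exercise mice averaged 6.67 ± 0.56 and sedentary mice 5.27 ± 0.34 (SD, n = 3 each), a rise of 1.399 (limma, SE 0.31, adjusted p = 0.0338). An exact two-sided permutation test of the group means gave p = 0.1, the smallest that 3 arrays against 3 allow. Against sedentary mouse 1 alone, which shares their strip, the exercise mean was higher by 1.01.

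Nr4a2, also called Nurr1 and known from dopamine neurons, had the largest SD of the members among the exercise mice, but not among the sedentary mice, where Egr3 and Egr1 varied more. Its log2 signal was 0.58, -1.57 and 1.87 in the exercise mice and -0.70, -0.25 and 0.22 in the sedentary mice. Exercise mouse 3 had the highest value of all 6 mice and exercise mouse 2 the lowest, so that the sedentary group lay inside the range of the exercise group. Its difference of 0.54 on the log2 scale (limma, SE 0.84, adjusted p = 0.670) had a 95% confidence interval from -1.49 to 2.57, and it was -0.25 without exercise mouse 3. The second probe of Nr4a2 gave the same order of the exercise mice, at 0.35, -1.88 and 1.69, and a log2 fold change of 0.40.

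Nr4a3, also called NOR-1, had a log2 signal of -2.82, -3.08 and -2.53 in the exercise mice and -2.72, -3.09 and -3.63 in the sedentary mice. The groups overlapped. For this gene the log2 fold change of 0.33 (limma, SE 0.26, adjusted p = 0.383) had a 95% confidence interval from -0.29 to 0.96, so that neither no change nor a rise close to 2-fold lay outside it. Against sedentary mouse 1 alone the difference was -0.09. The second probe of Nr4a3, for another transcript, was well above background on 1 exercise array and 1 sedentary array and was left out of the test. Its log2 difference was -0.67, opposite in sign to that of the used probe, with most arrays not well above background. The difference between Nr4a1 and its relatives was not tested, and the promoter windows described above hold 4 CRE cores in each of the 3 genes.

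Of the EGR genes, Egr1 rose and Egr3 did not pass the test. Egr1, which is induced by growth factors and by contraction in many tissues, had a log2 signal of 3.22, 3.999 and 3.28 in the exercise mice and 2.35, 1.35 and 2.40 in the sedentary mice. Here exercise mouse 2 was the highest, and sedentary mouse 2 stood below the other sedentary mice. Exercise mice averaged 3.50 ± 0.43 and sedentary mice 2.03 ± 0.60 (SD, n = 3 each), a rise of 1.47 (limma, SE 0.35, adjusted p = 0.0390), or 2.77-fold. Dropping any one array moved it to between 1.12 and 1.65. Against sedentary mouse 1 alone it was 1.15.

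Egr3, known in muscle as a factor that intrafusal fibres of the muscle spindle need, had a log2 signal of -2.51, -2.16 and -0.82 in the exercise mice and -3.40, -3.05 and -1.76 in the sedentary mice. Mouse 3 was the highest of each group, and sedentary mouse 3 lay above exercise mice 1 and 2. The log2 fold change was 0.90 (limma, SE 0.58, adjusted p = 0.302, 95% confidence interval from -0.51 to 2.32). It ranged from 0.40 without exercise mouse 3 to 1.39 without sedentary mouse 3. The other probes of Egr3 were dim, 1 of them above background on no array and the other on 1 array of each group. Of 7 spindle markers tested, such as Etv1, Ntf3 and Myh6, 1 rose (Etv4) and 1 fell (Ngfr), and their summed level overlapped between the groups, from 9.53 to 10.9 times the 75th percentile in the exercise mice and from 9.74 to 11.4 in the sedentary mice.

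Arc, Ier2 and Ier3 encode proteins that are not DNA-binding factors of a known family. Arc, best known for its place at synapses of active neurons, had the largest fold change of the 10 genes. Its log2 signal was -1.72, -1.10 and 0.41 in the exercise mice and -3.00, -3.21 and -2.57 in the sedentary mice. The groups did not overlap, but the exercise mice spanned 2.13 log2 units. Exercise mice averaged -0.80 ± 1.09 and sedentary mice -2.93 ± 0.33 (SD, n = 3 each), a rise of 2.13 (limma, SE 0.53, adjusted p = 0.0439). Exercise mouse 3 carried part of this size, since the value was 1.52 without it. Against sedentary mouse 1 alone it was 2.1999, and with normexp background correction, which adds an offset and draws dim spots together, it was 1.43.

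Ier2, which encodes a nuclear protein induced by growth factors, had a log2 signal of 1.76, 1.94 and 1.07 in the exercise mice and 0.38, 0.03 and 0.60 in the sedentary mice. In contrast to Arc and Nr4a1, exercise mouse 3 was the lowest of its group here. Its rise of 1.26 (limma, SE 0.26, adjusted p = 0.0304) had the lowest adjusted p of the 10 genes, and it was 1.52 without exercise mouse 3. Against sedentary mouse 1 alone it was 1.21.

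Ier3, also called IEX-1 and known as a regulator of cell survival under stress, had a log2 signal of 0.23, 0.89 and 1.21 in the exercise mice and 0.58, 0.37 and -0.01 in the sedentary mice. The groups overlapped, with exercise mouse 1 below sedentary mice 1 and 2. On the log2 scale the exercise mean was higher by 0.46 (limma, SE 0.28, adjusted p = 0.278, 95% confidence interval from -0.22 to 1.14).

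Of the brakes on signalling and proliferation, Dusp1 rose and Btg2 did not pass the test. Dusp1, also called MKP-1, had a log2 signal of 4.47, 4.61 and 5.10 in the exercise mice and 3.73, 3.29 and 3.96 in the sedentary mice. All exercise mice lay above all sedentary mice, and the SD was alike in both groups, 0.33 and 0.34 (n = 3 each). Dusp1 rose by 1.06 (limma, SE 0.23, adjusted p = 0.0328), just over the fold change minimum. It was 0.99 against sedentary mouse 1 alone, and dropping any one array gave 0.88 to 1.21.

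Btg2 had a log2 signal of 2.35, 2.33 and 3.02 in the exercise mice and 1.73, 1.88 and 2.36 in the sedentary mice. Only sedentary mouse 3 reached the range of the exercise group, where it lay next to exercise mice 1 and 2. Here the exercise mean was higher by 0.58 (limma, SE 0.25, adjusted p = 0.148, 95% confidence interval from -0.02 to 1.18), and the second probe gave 0.52. The promoter palindrome TGACGTCA was found in both Btg2, which did not pass, and Dusp1, which rose.

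**Figure D2:**
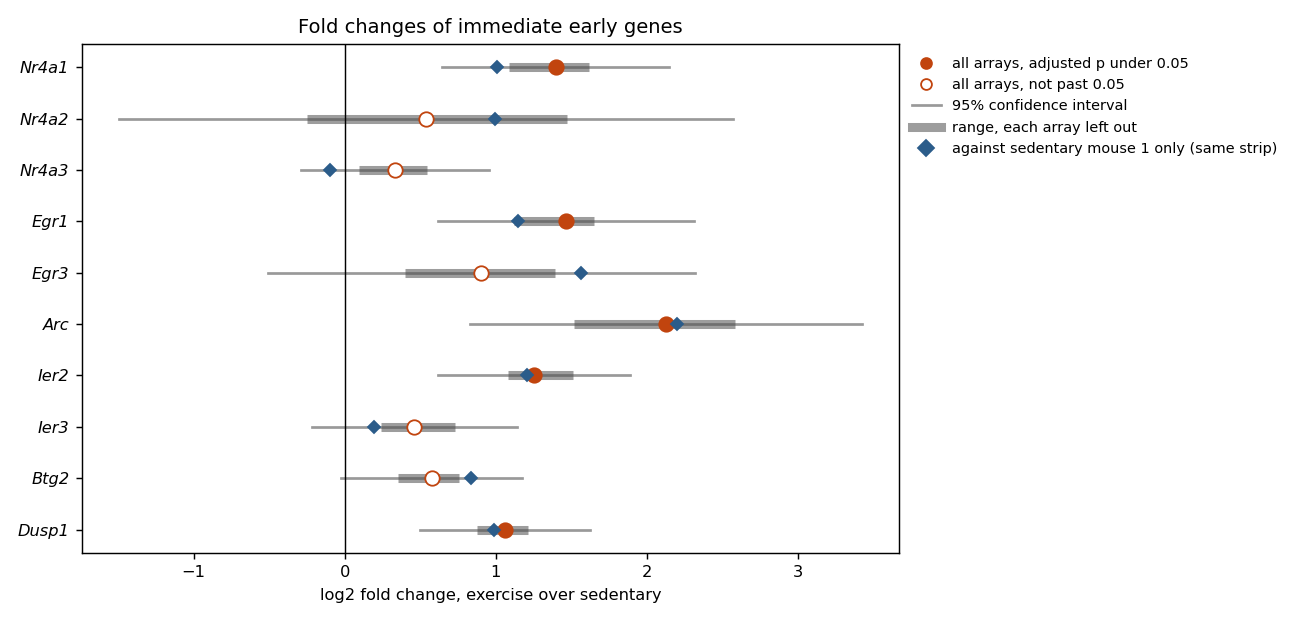
Log2 fold change of the exercise over the sedentary group (x axis) for each gene (y axis), with filled circles for adjusted p under 0.05, thin lines for the 95% confidence interval, thick bars for the range with each array left out and diamonds for the difference from sedentary mouse 1 alone. The intervals of Nr4a1, Egr1, Arc, Ier2 and Dusp1 lie above 0, and the thick bar of Nr4a2 crosses 0, down to -0.25.

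The immediate early genes differed between mice of 1 group more than most genes did. The SD among the 3 exercise mice had a median of 0.48 over the 10 genes and of 0.14 over everything tested, and that among the 3 sedentary mice had a median of 0.34 and of 0.15. In each of the 10 genes the SD was above the median of everything tested in both groups. The SD of Nr4a2 in the exercise mice exceeded that of 99.9% of everything tested, that of Arc 99.2% and that of Egr3 98.5%. Nr4a3 had the smallest exercise SD of the 10, at 0.27, above that of 77.5% of everything tested. An SD from 3 arrays is itself imprecise, and these shares are a description.

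Exercise mouse 3 had the highest value of all 6 mice in 8 of the 10 genes, and exercise mouse 2 in the other 2, Egr1 and Ier2. Over everything tested, exercise mouse 3 was the highest in 16.3%. With each gene set relative to its own mean, the average over the 10 genes was 1.03 in exercise mouse 3 and 0.22 and 0.27 in exercise mice 1 and 2. It was -0.50, -0.72 and -0.30 in sedentary mice 1, 2 and 3. No sedentary mouse was the highest in any of the 10, and the only exercise mouse that was the lowest in any was mouse 2, in Nr4a2. Without exercise mouse 3 the log2 fold changes of the 5 genes that rose lay between 0.88 and 1.58, and none passed an adjusted p of 0.05. This is not particular to that mouse, since none of the 5 passed without exercise mouse 1 or 2 or sedentary mouse 2 or 3. Of everything tested, 0 passed without exercise mouse 3.

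**Figure D3:**
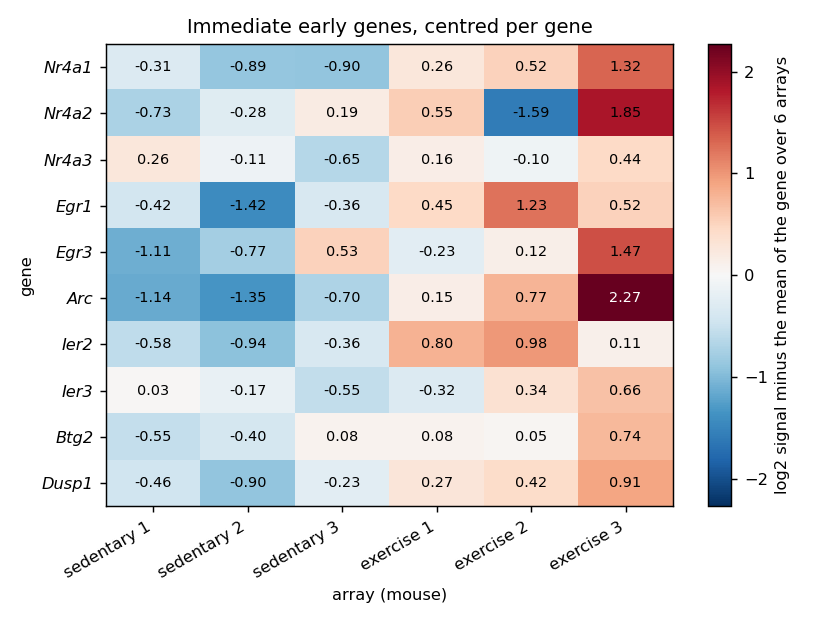
Log2 signal of each gene (rows) on each array (columns) minus the mean of that gene over the 6 arrays, printed in each cell and coloured from blue (lower) to red (higher). The column of exercise mouse 3 holds the highest value of 8 rows, whereas the sedentary columns are mostly below 0.

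Whole muscle holds several cell types that also express immediate early genes, and in such tissue fewer cells of a type and less RNA per cell cannot be told apart. Of 10 endothelial markers tested, 0 passed an adjusted p of 0.05 by limma and 1 (Vwf) had an unadjusted p under 0.05. Their summed level was 95.4 to 127.7 times the 75th percentile in the exercise mice and 94.0 to 104.8 in the sedentary mice. Of 10 macrophage markers, 0 passed, 0 had an unadjusted p under 0.05, and the sums overlapped (85.1 to 98.4 and 81.8 to 98.7). The 6 markers of fibroadipogenic progenitors also gave 0 calls and 0 at an unadjusted p under 0.05, with sums of 467.6 to 533.2 and 434.7 to 522.0.

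Other marker lists did move with the groups. Over everything tested, 11.5% passed as higher and 6.12% as lower. Of the 10 muscle fibre markers, 8 rose and 0 fell, with a median log2 fold change of 0.82, and their summed level was 7041 to 7719 in the exercise mice and 3733 to 5132 in the sedentary mice. The part of this difference in the immediate early genes was not tested. Of 6 satellite cell markers, 1 fell (Pax7) and 0 rose, with sums of 16.3 to 18.5 and 20.6 to 23.3, and Myf5 was too dim to be tested, with 0 arrays well above background. Of 6 smooth muscle markers, 2 fell (Myh11 and Mylk) and 0 rose, with overlapping sums of 130.7 to 139.0 and 125.8 to 150.4. Des, which is also one of the muscle fibre markers, and Smtn add most to these sums and differed by 0.15 and 0.08. Myh11, Mylk, Cnn1 and Tagln differed by -0.95, -0.58, -1.66 and -0.52, of which the last 2 did not pass. The summed level of 7 adipocyte markers was 234.0, 322.8 and 609.7 in exercise mice 1, 2 and 3 and between 408.5 and 532.4 in the sedentary mice. Exercise mouse 3, highest in 8 of the 10 immediate early genes, also had the highest sum here, to which Cfd and Fabp4 add most. In Adipoq, Plin1, Cidec and Pparg sedentary mouse 2 was above it. The part of these markers in those 8 genes was not tested. Of the adipocyte markers 1 rose (Lep) and 0 fell. The 4 red blood cell markers gave 0 calls by limma and 0 at an unadjusted p under 0.05, with sums of 455.3 to 638.0 and 273.4 to 573.4.

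A wider list of 46 other immediate early genes was read beside the 10. Of these, 43 were tested, and 7 rose and 0 fell, against 11.5% of everything tested as higher and 6.12% as lower. The list had a median log2 fold change of 0.25, beside 0.98 for the 10 genes described here and 0.026 for everything tested. The 10 genes and this list were chosen with earlier results of these data known, so the difference between their medians is a description only. Ptgs2, which encodes cyclooxygenase-2, had a log2 signal of -3.20, -3.02 and -3.04 in the exercise mice and -4.88, -4.42 and -4.76 in the sedentary mice. It was well above background on 2 of the 3 sedentary arrays, and it rose by 1.60 (limma, SE 0.14, adjusted p = 0.0234). Socs3, a brake on cytokine signalling, rose by 1.31 (SE 0.31, adjusted p = 0.0384), and Gadd45g, a stress-induced growth arrest gene with a bright probe, by 0.97 (SE 0.23, adjusted p = 0.0385). The other 4 that rose were Hes1 (0.95), Tob1 (0.92), Zfp36 (0.88) and Ier5l (0.76). Tob1 belongs to the same antiproliferative family as Btg2. Egr2, also an EGR factor, differed by 0.54 (adjusted p = 0.292), whereas Egr4 was too dim to be tested.

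Not every immediate early gene was higher. Gadd45a differed by -1.01 (limma, SE 0.27, adjusted p = 0.0506) with all exercise mice below all sedentary mice, and Atf3 by -0.55 (adjusted p = 0.409). Per1 and Errfi1 were highest in exercise mouse 3 with overlapping groups. Per1 had a log2 signal of 2.94, 3.83 and 5.01 in the exercise mice and of 4.08, 4.15 and 3.87 in the sedentary mice. Errfi1 had one of 3.72, 3.36 and 5.26 in the exercise mice. Both were named after their values were seen. Among the 7 AP-1 genes, Fosb (2.06, adjusted p = 0.0266), Fos (1.99, adjusted p = 0.0240) and Junb (1.25, adjusted p = 0.0234) rose by limma. Over everything tested 11.5% passed as higher, and the second probe of Junb gave a log2 fold change of 0.66. The log2 differences of Fosb, Fos and Junb from sedentary mouse 1 alone were 1.31, 1.49 and 1.38. Jund, with the brightest probe, differed by 0.24 (adjusted p = 0.170).

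The factors and kinases that act on immediate early genes were also listed. Of 35, all were tested, 5 rose and 1 fell, with a median log2 fold change of 0.092. Over everything tested, 11.5% passed as higher and 6.12% as lower, and the count of rises in this list was near that share. Rps6ka2, a kinase downstream of ERK, rose by 0.75 (limma, SE 0.11, adjusted p = 0.0234), and Map2k2, which activates ERK, by 0.57 (SE 0.11, adjusted p = 0.0258). Mapk14, Srf and Mapk9 rose by 0.54, 0.44 and 0.40. Srf encodes serum response factor, and its log2 signal was 2.74, 2.67 and 2.87 in the exercise mice and 2.33, 2.22 and 2.40 in the sedentary mice. Hdac4, a repressor of MEF2-dependent genes that is known to be raised after denervation, was the gene that fell, by 0.63 (SE 0.15, adjusted p = 0.0376). Creb1, the CREB gene itself, differed by -0.12 (adjusted p = 0.351), and Elk1, named for its bright probe, by 0.11 (adjusted p = 0.411) with its other probe at -0.18. None of the 35 reached a log2 fold change of 1 with an adjusted p under 0.05. Camk2a had 1.25 with an adjusted p of 0.0541.

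Partners and corepressors of the members were mixed. Of the 7 tested, 3 rose and 0 fell, against 11.5% of everything tested as higher and 6.12% as lower. The retinoid X receptors can pair with Nr4a1 and Nr4a2, and the 3 genes that rose were theirs. Rxrg, the form typical of muscle, had a log2 signal of 4.89, 4.61 and 4.52 in the exercise mice and 3.77, 3.15 and 3.10 in the sedentary mice, a log2 fold change of 1.33 (limma, SE 0.21, adjusted p = 0.0234). Rxra rose by 0.57 (adjusted p = 0.0240) and Rxrb by 0.35 (adjusted p = 0.0470). Nab2, a corepressor of EGR factors, differed by 0.42 (adjusted p = 0.416), and Nab1 was not tested. Cnot1, Cnot7 and Cnot8, subunits of the deadenylase complex that Btg2 binds, lay between -0.11 and 0.17 and did not pass.

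Of 16 genes of glucose, glycogen and lipid use that NR4A receptors are known to act on in muscle, 8 rose and 0 fell. Over everything tested, 11.5% passed as higher and 6.12% as lower. The median log2 fold change of the list was 0.70. The part of the general rise of muscle fibre markers, which include Pygm of this list, was not tested. Phkg1, the catalytic subunit of muscle phosphorylase kinase, rose by 1.41 (limma, SE 0.31, adjusted p = 0.0329), and Fbp2, muscle fructose bisphosphatase, by 1.39 (SE 0.35, adjusted p = 0.0435). Eno3, the muscle enolase, rose by 0.91 (adjusted p = 0.0253), and Pgam2, Bpgm, Slc2a4, Pygm and Pfkm by 1.08, 0.93, 0.91, 0.88 and 0.84. The other 8 did not pass. Of these, Hk2, Gys1 and Prkag3, which also act in glucose and glycogen use, differed by 0.56 (adjusted p = 0.0508), 0.51 (adjusted p = 0.0898) and 0.47 (adjusted p = 0.0920). Pdk4, Ucp3, Lpin1 and Cpt1b, which act in lipid use or in the switch to it, lay between 0.26 and 0.41 with adjusted p between 0.0683 and 0.343. Ucp2 was the only gene of the list below 0, at -0.25. Eno3 had a log2 signal of 9.54, 9.43 and 9.595 in the exercise mice, an SD of 0.085, below the median of 0.14 over everything tested.

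**Figure D4:**
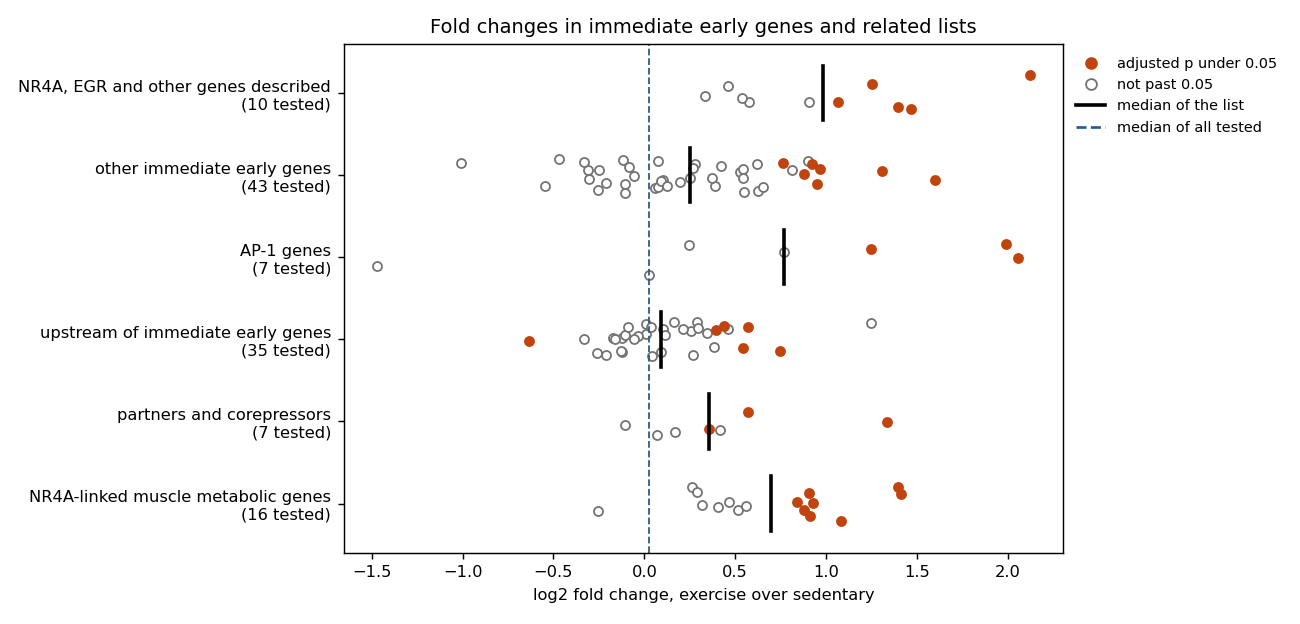
Log2 fold change of the exercise over the sedentary group (x axis) for every tested gene of each list (y axis, jittered within a list), filled where the adjusted p is under 0.05, with black bars for the median of a list and a dashed line for the median of everything tested. The 10 genes described have a median of 0.98 and the wider list of immediate early genes one of 0.25. Both were chosen with earlier results of these data known.

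The gene whose log2 signal followed each member most closely over the 6 arrays was taken by Pearson correlation. It was Efcab2 for Nr4a1 (r = 0.995), Ykt6 for Egr1 (r = 0.998), Rpp38 for Arc (r = 0.996), Popdc2 for Ier2 (r = 0.997) and 2610528A11Rik for Dusp1 (r = 1.00). For the members that did not pass it was Eif1a for Nr4a2 (r = 0.988), Mast2 for Nr4a3 (r = 0.985), Mfap5 for Egr3 (r = 0.985), Ctla2b for Ier3 (r = 0.998) and Thoc6 for Btg2 (r = 0.986). A different gene came first for each member. With 6 arrays in 2 groups such values are reached by many genes: of 15735 named genes, between 5 (for Egr3) and 271 (for Nr4a1) had an r above 0.95, and the correlations are a description only.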

How the data were processed

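RNA of 6 mice, 1 array per mouse, was labelled with a single dye and hybridized to Agilent SurePrint G3 mouse arrays. According to the study's methods, TAKARA BIO prepared the cDNA and hybridized the arrays. The authors deposited scanner files of Feature Extraction 12.1.0.3, whose processed signal is an intensity with background subtracted and spatial trends removed, not scaled between arrays. Their table of values holds the same intensities times 1 factor per array (1.33 to 1.88).

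Control spots and outlier spots were left out, log2 of the processed signal was averaged over the spots of a probe, and the 75th percentile of each array was subtracted. Probes with a missing value (22) and probes well above background on fewer than 3 arrays were left out. A gene was represented by its probe with the highest mean. Names came from transcript accessions matched to RefSeq of GRCm38.p6 (34566 of 56605 probes). Groups were compared with limma 3.58.1 (R 4.3.3; lmFit, eBayes, two-sided, Benjamini-Hochberg over 25005), after a test on simulated data. The study's own thresholds in iDEP were an FDR of 0.05 and a 1-unit change on the log2 scale, taken over here as the fold change minimum. The number of arrays limits the precision. The members and lists were chosen with earlier results of these data known. By the rule for named genes, a list gives its 2 largest rises and falls past the threshold and the 1 gene with the brightest probe, and each member its most alike gene. Others of a list (Junb, Rxrb, marker genes given as examples or not past the test, Hes1, Tob1, Per1, Errfi1, Zfp36, Ier5l, Egr2, Gadd45a, Atf3, Mapk14, Srf, Mapk9, Creb1, Camk2a, Nab2, the Cnot genes and those of glucose and lipid use after the first 3) were named after their values were seen. Alternatives of scaling, background, filter, probe choice, test, block and arrays left out were run.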

Additional observations from a re-analysis of the deposited data

How the results depend on the processing

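For the 5 genes that rose, the calls are less stable than the direction of the change. Nr4a2, Nr4a3, Egr3, Ier3 and Btg2 passed an adjusted p of 0.05 in no alternative. In 21 alternatives Nr4a1, Egr1, Arc, Ier2 and Dusp1 kept a positive log2 fold change, between 0.93 and 1.62, 0.99 and 1.82, 1.43 and 2.58, 0.78 and 1.52, and 0.59 and 1.25. Of the members, 2 passed an adjusted p of 0.05 with quantile normalization (Arc and Ier2) and 2 in the deposited table (Nr4a1 and Ier2), all past the fold change minimum too. Over everything tested 12.9% and 17.5% passed in these settings. With no scaling between arrays 3 passed and 3 did not overlap (Nr4a1, Egr1 and Arc), and 1 passed the fold change minimum, against 47.6%, 62.0% and 9.28% of everything tested (11280 passed the adjusted p as lower and 617 as higher). By limma 0 passed with the replicate number as a block (replicate block; 7 at an unadjusted p under 0.05), 0 with the strip as a block (3 unadjusted) and 0 with the 4 arrays of the first strip, an alternative chosen after seeing the data in which the lone sedentary mouse is assumed to vary like the others (3 unadjusted). The methods' t-test called 0 after Benjamini-Hochberg (5 unadjusted). Leaving out each array in turn gave between 0 and 4 calls, with and without the fold change minimum, and between 5 and 7 members without overlap, which cannot be fewer than with all arrays, against 48.7% to 56.1% of everything tested. Of the other immediate early genes, 13 passed with normexp (1 of them lower), 12 with trend and robust (1 lower) and 14 with array weights (2 lower), beside 32.7%, 22.8% and 35.0% of everything tested, then 1 by the t-test (12 unadjusted), 0 with the replicate block (17 unadjusted), 0 with the strip as a block and 0 in the first strip (8 unadjusted each), and between 0 and 9 with an array left out. The sign turned for Nr4a3 (-0.14) and Ier3 (-0.0125) with no scaling between arrays, where the median of everything tested was -0.45, for Nr4a3 with the strip as a block or the first strip alone (-0.0942), and for Nr4a2 without exercise mouse 3 (-0.25; with an array left out it ranged up to 1.47). Same-numbered mice share only a number (correlations of their deviations 0.0154, 0.0846 and 0.0361), and the cause of the other changes was not tested.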
